A study of Mus musculus with 4 samples.

Results

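Genes of cholesterol and fatty acid metabolism were compared between 2 macrophage subsets of mouse ear skin. A set of 36 genes was chosen by name, to cover sterol synthesis and its control, fatty acid synthesis, lipid uptake, efflux and storage. Of these, 33 had a row of their own in the array table, that is, a row annotated with exactly 1 gene symbol, and the row with the highest mean over the 4 arrays stood for each gene. They are 33 of 22180 genes so represented. Idi1, Scd2 and Soat1 were not analysed here. The CX3CR1low and CX3CR1bright cells were sorted from the dermis of untreated adult C57Bl/6 mice, and each subset was measured on 2 arrays. Mice of both subsets were Cx3cr1+/gfp, so that 1 allele of the fractalkine receptor gene is replaced by GFP in all samples, and both subsets therefore keep a single working copy. Each sample was a pool of 3 to 6 mice, with independent litters behind the replicates of a subset. The values are log2 levels after RMA, an Affymetrix procedure that corrects background, equalises arrays and summarises probes, and differences are CX3CR1bright minus CX3CR1low on that scale.

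Macrophages take up lipid from lipoproteins and from dying cells. The cholesterol they release in lysosomes is esterified and stored in droplets, or exported to apolipoproteins by ABC transporters. When sterol in the endoplasmic reticulum is low, the SREBP factors leave that membrane with their escort SCAP and switch on the synthesis and uptake genes, while INSIG proteins hold them back. When oxysterols accumulate, the liver X receptors switch on the export genes.

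The 4 efflux genes Abca1, Abcg1, Apoe and Pltp, the last-step sterol gene Dhcr7 and the sterol sensor gene Insig1 had lower values on both CX3CR1bright arrays than on either CX3CR1low array. The sterol synthesis genes Fdft1 and Sqle and the oxysterol gene Ch25h had higher values on both. Gpnmb, Plin2, Sc5d, Srebf1, Cd36, Npc1 and Npc2 were lower in the same way, and Fdps and Lrp1 were higher. None of these differences passed the test: 0 of the 32 tested genes had an adjusted p under 0.05 (limma, adjusted over all 13133 tested genes, of which 0.137% passed). A gene was tested if at least 2 arrays lay above their own median level, and of the 33 genes Lss alone missed that filter. At an unadjusted p under 0.05 there were 8 genes (limma), 3 higher and 5 lower, which is 25% of the tested set against 18.8% of all tested genes (7.03% higher and 11.8% lower). The count was 3 without CX3CR1low replicate 1 and 3 without CX3CR1low replicate 2, when 11.1% and 9.23% of all tested genes had such a p, and 11 without CX3CR1bright replicate 1, when 22.1% did. The subsets did not overlap for 18 genes, 5 higher and 13 lower, or 56.2% against 50.4% of all tested genes. Among all tested genes 18.9% were higher and 31.5% lower without overlap, so lower values were also the more frequent in the array as a whole. That depended on the scaling: after quantile normalization 6 lipid genes were higher and 8 lower, beside 23% and 26.1% of all tested genes. After cyclic loess 7 were higher and 9 lower, beside 25.2% and 24.1%. Without CX3CR1low replicate 2, or without CX3CR1bright replicate 2, 10 were higher, when 29.7% and 31% of all tested genes were. These shares are close to the background, and what follows describes single genes. The set's median difference was -0.18, beside -0.070 for all tested genes. A stricter filter, which removes dim genes, left 7019 genes, 30 of them lipid genes. The median over those 7019 genes was -0.12. Of them 26.2% had an unadjusted p under 0.05 (limma), as did 9 of the 30 lipid genes.

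**Figure D1:**
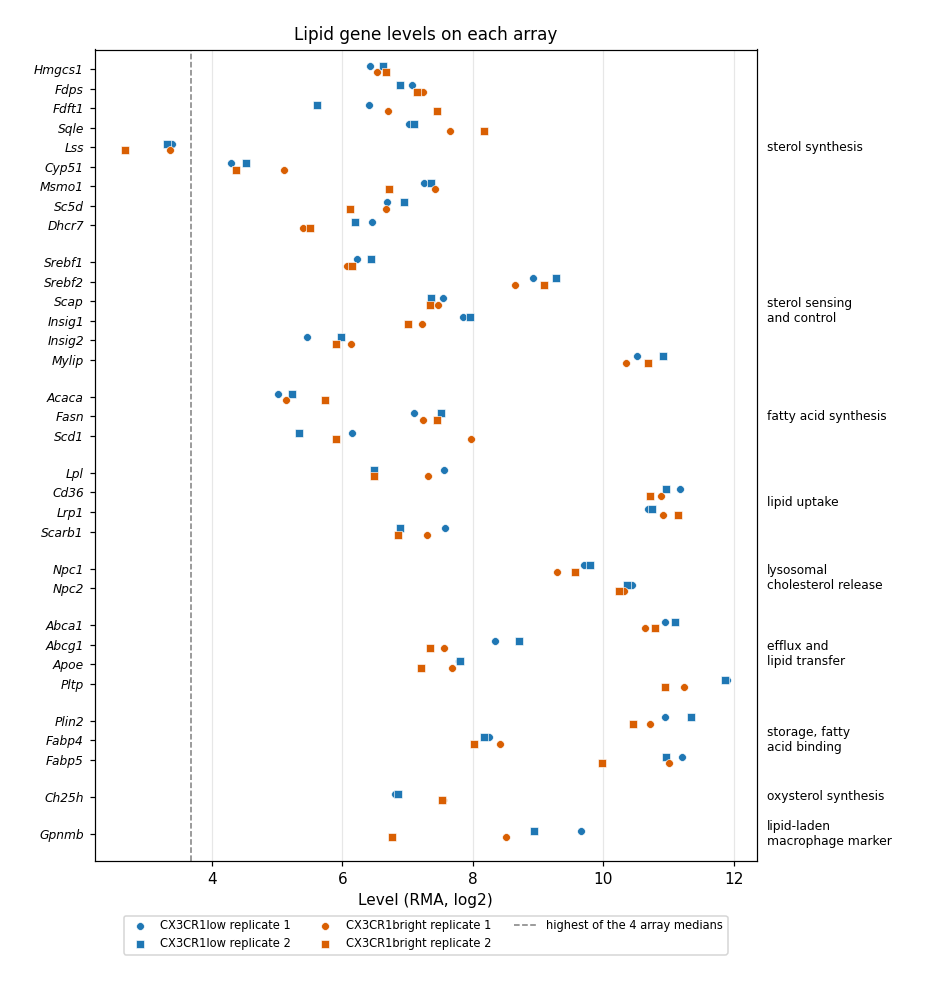
Levels of the 33 measured lipid genes (x axis, RMA log2) on each of the 4 arrays, with genes grouped by role; blue points are CX3CR1low and orange points CX3CR1bright, set slightly apart in height, circles are replicate 1 and squares replicate 2. The dashed line is the highest of the 4 array medians (3.68); Lss lies below it on all arrays, and levels of different genes cannot be compared with each other.

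Sorting and purity were checked first. Cx3cr1, the gene behind the gate, stood at 8.42 and 8.44 on the CX3CR1bright arrays and at 3.63 and 3.60 on the CX3CR1low arrays. Of 11 macrophage markers, among them Csf1r and Adgre1, 11 lay above the array median on each array. Other cell types left transcripts too, as a list of markers for each showed. The median of 11 keratinocyte markers lay 0.38 above the CX3CR1low mean on CX3CR1bright replicate 1 and 2.49 above it on replicate 2. On CX3CR1low replicate 1 it also lay 0.34 above that mean. The log2 levels of these markers summed to 57.5 to 63.9 in CX3CR1low and to 65.5 to 87.9 in CX3CR1bright. The medians of 9 fibroblast and 8 dendritic cell markers differed by 0.91 and 1.21. The dendritic cell list was split, with 5 markers higher and 2, Cd209a and Irf4, lower without overlap. Of 6 mast cell markers 6 lay above the array median on each array. Their median differed by -0.28, and 3 were lower without overlap. The median of 5 Langerhans cell markers, among them Cd207, differed by 1.88, the largest shift of the 11 lists, and 5 of 5 were higher without overlap. Their log2 levels summed to 29.9 to 30.8 in CX3CR1low and to 35.998 to 41.8 in CX3CR1bright. Among all tested genes 18.9% were higher and 31.5% lower without overlap. Of 9 measured adipocyte markers 3 lay above the array median on each CX3CR1low array and 5 and 6 on the CX3CR1bright arrays. Adipoq and Plin1, which define fat cells, lay below it on all 4, while Cidea, Pck1 and Lipe lay above it on all 4. The median of the 9 markers differed by 0.32, with 3 higher, Plin1 among them, and 0 lower without overlap. The part of these cell types in the differences below was not tested. In sorted bulk samples, fewer cells of a type and less RNA per cell cannot be told apart.

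The sterol synthesis genes went both ways along the pathway. Fdft1 encodes squalene synthase, which makes the first dedicated sterol precursor. Its level was 6.41 and 5.61 in CX3CR1low and 6.70 and 7.44 in CX3CR1bright cells. Both CX3CR1bright arrays lay above both CX3CR1low arrays, by little for replicate 1. The difference was 1.06 ± 0.38 (SE, n = 2 per subset), or 2.09-fold, with an adjusted p of 0.229 (limma). Sqle, squalene epoxidase, acts next and is a point of control of the pathway. It stood at 7.02 and 7.10 in CX3CR1low and at 7.65 and 8.18 in CX3CR1bright cells. The CX3CR1low arrays were nearly equal and both CX3CR1bright arrays were higher, with a difference of 0.85 ± 0.24 (SE) and an adjusted p of 0.173 (limma). For both genes the higher of the CX3CR1bright arrays was replicate 2, on which keratinocyte markers were highest, and without it the differences were 0.69 for Fdft1 and 0.59 for Sqle.

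Dhcr7, which makes the final reduction to cholesterol, went the other way. Its level was 6.45 and 6.19 in CX3CR1low and 5.40 and 5.50 in CX3CR1bright cells, so that the groups were well apart. The difference was -0.87 ± 0.20 (SE) with a 95% interval of -1.37 to -0.37, unadjusted for the number of genes, and an adjusted p of 0.131 (limma). With 1 array left out it ran from -0.996 to -0.737. Sc5d, the desaturase before Dhcr7, stood at 6.68 and 6.94 against 6.68 and 6.11, where CX3CR1bright replicate 1 almost equalled CX3CR1low replicate 1. Its difference of -0.42 had an interval of -1.08 to 0.25.

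The other synthesis genes differed less. Hmgcs1, which supplies the mevalonate pathway, differed by 0.08 with an interval of -0.40 to 0.57, and Fdps, which makes farnesyl diphosphate, by 0.22 (interval -0.26 to 0.70). Cyp51, the lanosterol demethylase, differed by 0.34, which came from CX3CR1bright replicate 1 (5.12) alone, since replicate 2 (4.37) lay between the CX3CR1low arrays. Msmo1, a methylsterol oxidase, differed by -0.23 and had its lowest level, 6.72, on CX3CR1bright replicate 2. Lss, the lanosterol synthase gene, read 3.40 and 3.31 in CX3CR1low and 3.36 and 2.67 in CX3CR1bright cells, all below the array medians of 3.65 to 3.68, and can be background. Over the 8 tested synthesis genes 5 differences were positive and 3 negative, with a median of 0.15. The median was 0.29 after cyclic loess, 0.084 with no filter or the stricter one, and 0.058 without CX3CR1bright replicate 1.

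Among the genes that sense sterol, Insig1 stood apart. INSIG1 retains the SREBP escort in the endoplasmic reticulum and is itself an SREBP target. Its level was 7.85 and 7.95 in CX3CR1low and 7.21 and 7.01 in CX3CR1bright cells. Every CX3CR1bright value lay below every CX3CR1low value, and the difference was -0.79 ± 0.19 (SE), or 1.73-fold lower, with an adjusted p of 0.139 (limma). Its relative Insig2 did not follow, at 5.46 and 5.99 against 6.14 and 5.90, a difference of 0.30 with overlapping arrays and an interval of -0.34 to 0.93.

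The SREBP genes themselves differed little. Srebf2, the main activator of sterol synthesis, read 8.91 and 9.28 against 8.65 and 9.09 (difference -0.23, interval -0.86 to 0.41). Srebf1, which favours fatty acid synthesis, read 6.22 and 6.44 against 6.08 and 6.15 (difference -0.22, interval -0.70 to 0.27). The escort gene Scap differed by -0.04, and by 0.09 and 0.10 after quantile normalization and cyclic loess. Mylip encodes the ubiquitin ligase that marks the LDL receptor for degradation and is a liver X receptor target, and it differed by -0.20 (interval -0.81 to 0.41). The median of the 6 genes was -0.21, but -0.36 and -0.076 without CX3CR1low replicates 1 and 2 and -0.068 without CX3CR1bright replicate 1. It was -0.094 after quantile normalization and -0.087 after cyclic loess.

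The stretches before the transcription start were searched for letter patterns known to bind SREBP and the factors that act with it. RefSeq sequences (GRCm38.p6) matched 23 of the 33 genes, in 32 windows of 250 bases ending at a start. The other genes, among them Sqle, Fdft1, Fdps and Abcg1, had no sequence at hand and were not searched. Of the lipid genes that were higher without overlap, Ch25h and Lrp1 alone were searched. The E-box CACGTG, its own reverse complement, occurred in 5 of the 32 windows, against 6.02% of 32851 windows of all genes. The windows were those of Insig1, Sc5d and Abca1, of 1 of 3 starts of Dhcr7, and of 1 of 2 starts of Scap, whose level overlapped between the subsets. The sterol element TCACNCCAC, searched on both strands, occurred in 1 window, that of Hmgcs1, against 1.05%. The CCAAT box, searched on both strands, occurred in 17 windows, against 33.8%. The 3 genes shown each have a single start and an E-box and had CX3CR1bright values below the CX3CR1low values. For Sc5d the gap was only 0.0022. Apoe, Cd36, Gpnmb, Npc2, Plin2, Pltp and Srebf1 were also lower without overlap and had no E-box in their windows. Ch25h and Lrp1, which were higher, had none either. Capitals mark the E-box and the CCAAT box, which reads ATTGG on the reverse strand. The Insig1 window is chr5:28071162-28071411 (+ strand), with its E-box 96 bases before the start. That of Sc5d is chr9:42264301-42264550 (- strand), with its E-box at 93 bases, and that of the cholesterol exporter gene Abca1 is chr4:53159896-53160145 (- strand), at 142 bases. A match of letters shows neither binding nor a cause.
Insig1: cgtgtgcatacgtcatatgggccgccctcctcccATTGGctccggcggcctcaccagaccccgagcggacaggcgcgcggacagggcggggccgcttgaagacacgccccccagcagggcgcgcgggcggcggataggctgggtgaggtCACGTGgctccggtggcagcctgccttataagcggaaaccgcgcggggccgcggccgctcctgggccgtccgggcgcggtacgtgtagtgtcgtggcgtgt
Sc5d: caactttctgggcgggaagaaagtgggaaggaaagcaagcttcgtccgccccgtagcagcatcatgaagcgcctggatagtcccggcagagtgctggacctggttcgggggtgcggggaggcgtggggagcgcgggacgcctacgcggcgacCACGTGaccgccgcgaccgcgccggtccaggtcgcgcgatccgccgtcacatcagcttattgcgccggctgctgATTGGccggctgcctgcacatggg
Abca1: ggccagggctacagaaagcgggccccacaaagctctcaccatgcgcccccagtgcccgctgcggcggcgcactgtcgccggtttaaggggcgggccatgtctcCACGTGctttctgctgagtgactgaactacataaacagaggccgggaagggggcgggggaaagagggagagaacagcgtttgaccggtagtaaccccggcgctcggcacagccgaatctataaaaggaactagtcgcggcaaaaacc

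Of the fatty acid synthesis genes, Fasn and Acaca, the synthase and the carboxylase that feeds it, differed little. Fasn read 7.09 and 7.51 against 7.24 and 7.46 (difference 0.05, interval -0.53 to 0.63), and Acaca read 5.02 and 5.23 against 5.14 and 5.73 (difference 0.31, interval -0.35 to 0.97). Scd1, the desaturase that makes oleic acid, varied most within a subset. It stood at 6.15 and 5.33 in CX3CR1low, at 7.98 on CX3CR1bright replicate 1 and at 5.90 on replicate 2. A single array was high, and the other CX3CR1bright array lay between those of CX3CR1low. The difference was 1.20 ± 0.71 (SE), with an adjusted p of 0.430 (limma), and it was 0.16 without CX3CR1bright replicate 1 and 2.24 without replicate 2. The median of the 3 genes, 0.31, was 0.16 and 0.018 without CX3CR1bright replicates 1 and 2.

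Sebaceous glands also express Scd1, and some of their markers were high on the same array. Elovl3, an elongase of sebum fatty acids, stood at 6.20 on CX3CR1bright replicate 1 and at 4.27, 3.33 and 3.36 on CX3CR1low replicates 1 and 2 and CX3CR1bright replicate 2. Far2, which reduces fatty acids to alcohols for wax, stood at 6.34 against 4.998, 3.92 and 3.64 in the same order. Other markers of the list went otherwise. Krt79 was highest on CX3CR1bright replicate 2 (7.42, beside 6.06 on replicate 1). Mc5r, Mogat2, Pparg and Dgat2l6 lay below the CX3CR1low mean on CX3CR1bright replicate 1. Over the 9 sebocyte markers the median lay 0.27 above the CX3CR1low mean on CX3CR1bright replicate 1 and -0.44 from it on replicate 2. Their log2 levels summed to 35.0 to 38.9 in CX3CR1low and to 36.3 to 42.8 in CX3CR1bright. Mc5r, Awat2 and Dgat2l6 lay below the array median on every array. Elovl3 and Far2 were picked from the list after their values were seen, and the part of sebaceous RNA in the Scd1 level was not tested.

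**Figure D2:**
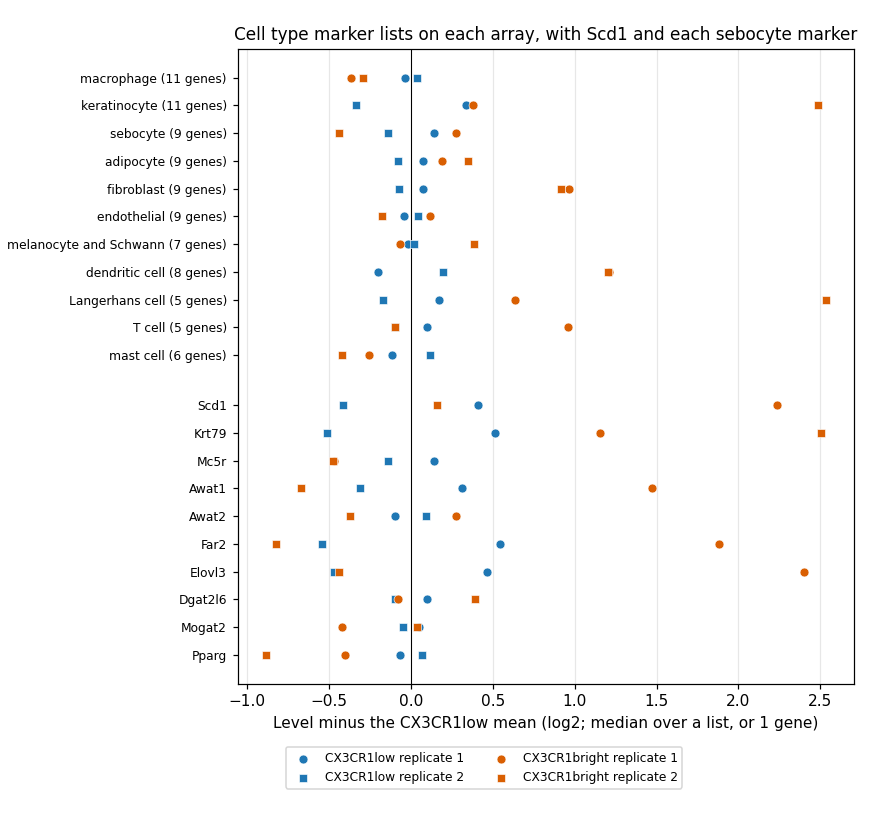
Levels relative to the CX3CR1low mean (x axis, log2) on each array: the median over each of 11 cell type marker lists, and below them Scd1 and each of the 9 sebocyte markers singly. Blue is CX3CR1low and orange CX3CR1bright, circles are replicate 1 and squares replicate 2; Scd1, Elovl3, Far2 and Awat1 are highest on CX3CR1bright replicate 1, while Krt79 and the keratinocyte and Langerhans cell medians (2.49 and 2.53) are highest on replicate 2.

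The uptake genes did not separate the subsets in 1 direction. Cd36, a scavenger receptor for oxidised lipoprotein and fatty acids, stood at 11.17 and 10.97 in CX3CR1low and at 10.89 and 10.71 in CX3CR1bright cells. Its values did not overlap, but the difference of -0.27 ± 0.20 (SE) had an interval of -0.76 to 0.23. Lrp1, an endocytic receptor for apolipoprotein E, stood at 10.69 and 10.75 against 10.91 and 11.13, higher without overlap, with a difference of 0.31 (interval -0.18 to 0.79).

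Lpl and Scarb1 split by replicate number rather than by subset. Lpl, the lipase that frees fatty acids from lipoproteins, read 7.56 and 6.48 in CX3CR1low and 7.31 and 6.48 in CX3CR1bright cells. Scarb1, the HDL receptor gene, read 7.57 and 6.88 against 7.30 and 6.85. In both subsets replicate 1 was the higher. The differences of -0.12 and -0.15 were smaller than the spread within either subset. The median of the 4 uptake genes was -0.14, but 0.24 without CX3CR1low replicate 1, 0.14 without CX3CR1bright replicate 2 and 0.0073 after cyclic loess.

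Npc1 and Npc2 encode the proteins that pass cholesterol out of the lysosome. Npc1 stood at 9.70 and 9.80 in CX3CR1low and at 9.29 and 9.56 in CX3CR1bright cells, and Npc2 at 10.43 and 10.35 against 10.31 and 10.24. Both lacked overlap, with small differences of -0.32 ± 0.20 and -0.12 ± 0.18 (SE). The intervals were -0.82 to 0.18 for Npc1 and -0.57 to 0.34 for Npc2. A second row of Npc1 read 3.92 and 4.15 against 3.20 and 3.38; the CX3CR1bright values lay below the array medians and can be background.

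All 4 efflux and transfer genes had lower values on both CX3CR1bright arrays than on either CX3CR1low array, although 0 passed the adjusted threshold (limma, 2 at an unadjusted p under 0.05). Of all tested genes 31.5% were lower without overlap, and 11.8% were lower at an unadjusted p under 0.05 (limma). Abcg1, which exports cholesterol to HDL particles, stood at 8.34 and 8.70 in CX3CR1low and at 7.56 and 7.35 in CX3CR1bright cells. The gap between the groups was wider than the spread in either. The difference was -1.07 ± 0.22 (SE), 2.09-fold lower, with an interval of -1.62 to -0.51 and an adjusted p of 0.111 (limma). Of the 32 tested genes it had the smallest p. With a stricter filter on dim genes the adjusted p was 0.0447 (limma), when 5.93% of 7019 tested genes passed. With no filter the adjusted p was 0.166 (limma).

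Pltp, the phospholipid transfer protein that remodels HDL, stood at 11.89 and 11.86 in CX3CR1low and at 11.24 and 10.95 in CX3CR1bright cells. The CX3CR1low arrays agreed closely, and the difference was -0.78 ± 0.20 (SE), 1.72-fold lower, with an adjusted p of 0.152 (limma). With an intensity trend in the variance the adjusted p was 0.0415 (limma), when 2.35% of all tested genes passed. With no filter the adjusted p was 0.231 (limma). Abca1, which loads cholesterol onto apolipoprotein A-I, was lower by less, at 10.94 and 11.09 against 10.63 and 10.79 (difference -0.30, interval -0.79 to 0.18). Apoe, the apolipoprotein that macrophages secrete with cholesterol, stood at 7.78 and 7.81 against 7.68 and 7.20. Its difference of -0.35 came mostly from CX3CR1bright replicate 2, and it was -0.11 without that array. The median of the 4 genes was -0.57, and it was -0.46 after quantile normalization, -0.45 after cyclic loess and -0.76 without CX3CR1bright replicate 1.

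Most macrophage markers also had lower values on the CX3CR1bright arrays. The median of the 11 markers differed by -0.34. Of them 8 were lower without overlap, 1, Fcgr1, was higher without overlap, and the others overlapped. The shares over all tested genes were 31.5% lower and 18.9% higher without overlap. Whether the efflux differences exceed that of the markers was not tested.

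**Figure D3:**
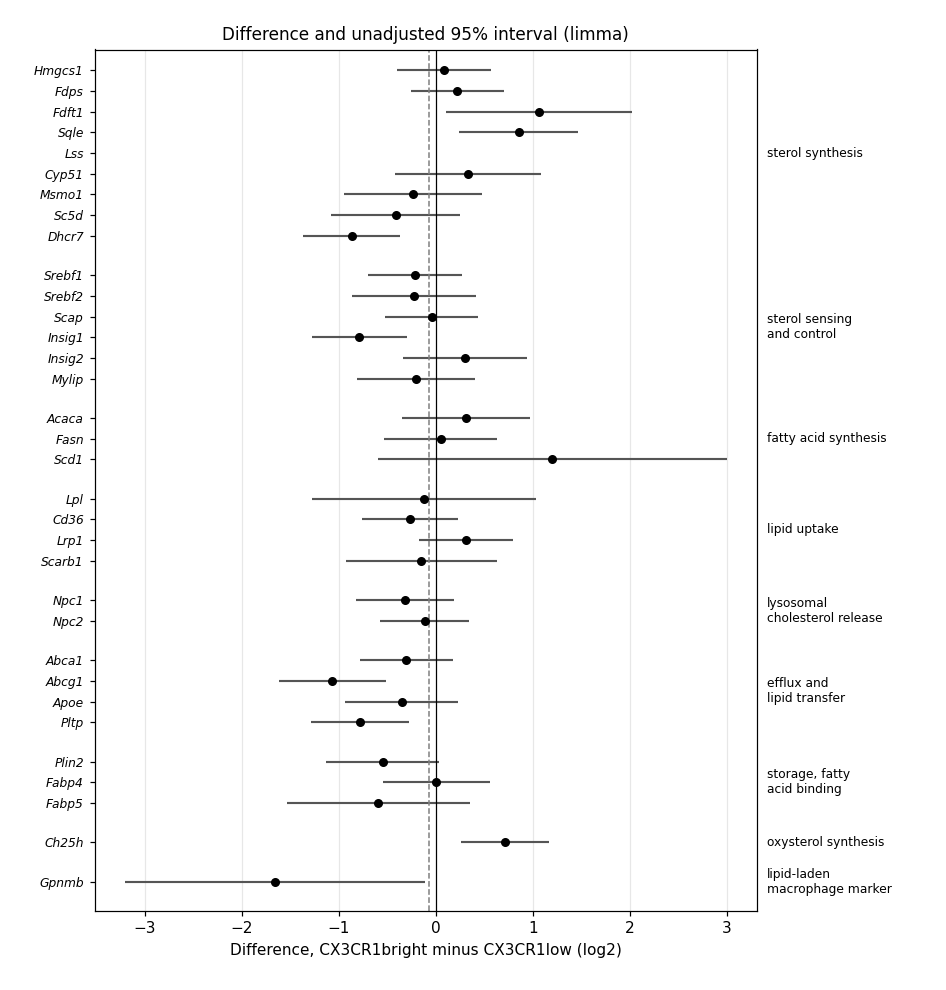
Differences of the 32 tested lipid genes (x axis, CX3CR1bright minus CX3CR1low, log2), grouped by role; points are the differences, lines the 95% intervals from limma, unadjusted for the number of genes, with 2 arrays per subset. The dashed line is the median over all tested genes (-0.070); the intervals of Fdft1, Sqle and Ch25h lie above 0 and those of Dhcr7, Insig1, Abcg1, Pltp and Gpnmb below 0, and Lss was not tested.

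Storage and fatty acid binding genes were mixed. Plin2, the coat protein of lipid droplets, stood at 10.94 and 11.34 in CX3CR1low and at 10.72 and 10.46 in CX3CR1bright cells, lower without overlap. The difference was -0.55 ± 0.23 (SE) with an interval of -1.13 to 0.033. Fabp4, a fatty acid carrier of macrophages, fat cells and endothelium, did not separate the subsets, at 8.25 and 8.17 against 8.42 and 8.02 (difference 0.0061, interval -0.54 to 0.56). Fabp5, the carrier that keratinocytes also express, stood at 11.21 and 10.96 against 11.01 and 9.98. Only CX3CR1bright replicate 2 was low, and without it the difference of -0.59 was -0.076. A second row of Fabp5 that was about as bright also gave -0.59, and the other rows gave -0.69 and -0.37. The median of the 3 genes was -0.55, and -0.076 without CX3CR1bright replicate 2.

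Ch25h makes 25-hydroxycholesterol, an oxysterol that holds back SREBP and activates liver X receptors. Its level was 6.81 and 6.85 in CX3CR1low and 7.55 and 7.53 in CX3CR1bright cells. The replicates were close, with SDs of 0.025 in CX3CR1low and 0.011 in CX3CR1bright cells (n = 2), and the groups lay 0.69 apart at their nearest values. The difference was 0.71 ± 0.18 (SE), 1.64-fold, with an adjusted p of 0.149 (limma), and it ran from 0.58 to 0.86 over the alternatives. A dimmer second row of the gene, near the array medians at 3.85 and 3.91 against 4.34 and 4.32, differed by 0.45.

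Gpnmb, a glycoprotein gene that lipid-laden macrophages and pigment cells express, had the widest difference of the set, and its replicates were far apart. It stood at 9.65 and 8.94 in CX3CR1low and at 8.51 and 6.76 in CX3CR1bright cells. All CX3CR1bright values were lower, and replicate 2 was by far the lowest. The difference was -1.66 ± 0.61 (SE), 3.16-fold, with an adjusted p of 0.239 (limma), and it was -0.78 without CX3CR1bright replicate 2 and -2.54 without replicate 1. The 7 pigment and Schwann cell markers had a median difference of 0.16, with Pmel, Tyrp1 and Mlana above the array median on all arrays and Tyr below it on all.

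**Figure D4:**
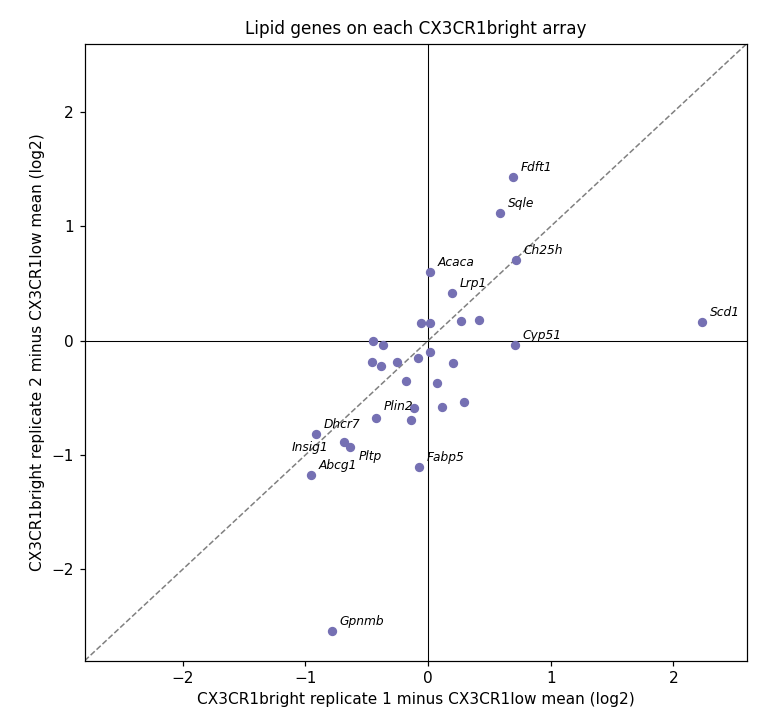
Each point is 1 of the 32 tested lipid genes, placed by its level on CX3CR1bright replicate 1 (x axis) and replicate 2 (y axis), both minus the same CX3CR1low mean (log2); the dashed line marks equal values. Abcg1, Pltp, Insig1, Dhcr7 and Ch25h lie near the line, while Scd1 (2.24 and 0.16), Fabp5 (-0.076 and -1.11) and Gpnmb (-0.78 and -2.54) take their difference mainly from 1 array.

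Further genes of these pathways, 63 that had been listed by function, gave the setting. Of them 53 were measured and 51 tested, and 0 passed the adjusted threshold (limma, 13 at an unadjusted p under 0.05, 4 higher and 9 lower, where 18.8% of all tested genes had such a p). Without overlap 9 were higher and 22 lower, beside 18.9% and 31.5% of all tested genes, and the median difference was -0.18. The 8 with the smallest p are named here. On the side of uptake and efflux, Lipa, the lysosomal lipase that frees cholesterol from its esters, stood at 9.56 and 9.54 in CX3CR1low and at 8.86 and 8.47 in CX3CR1bright cells (difference -0.89 ± 0.22, SE). Nr1h3, the gene of liver X receptor alpha, stood at 6.18 and 6.31 against 5.41 and 5.75 (difference -0.67 ± 0.21, SE). Both lacked overlap, with adjusted p of 0.139 and 0.192 (limma). In that list of 9 tested genes 8 had negative differences, with a median of -0.45. Without overlap 6 of the 9 were lower and 1 higher, beside the same shares of all tested genes, 31.5% and 18.9%.

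Triglyceride and droplet genes had 9 negative differences among 13. Without overlap 8 were lower and 2 higher, beside 31.5% and 18.9% of all tested genes. Lpin1, a phosphatidate phosphatase of triglyceride synthesis, stood at 6.46 and 7.21 in CX3CR1low and at 5.11 and 5.36 in CX3CR1bright cells. The difference was -1.60 ± 0.30 (SE), 3.03-fold lower, with an adjusted p of 0.102 (limma). The adjusted p was 0.0396 with the stricter filter (limma), when 5.93% of 7019 tested genes passed, and 0.145 with no filter. Agpat2, an acyltransferase of the same route, differed by -0.79 ± 0.19 (SE), and Abhd5, the activator of the droplet lipase, by -0.65 ± 0.18 (SE). In both, the subsets did not overlap.

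Fatty acid oxidation genes had 8 negative differences among 9, with a median of -0.12. The median was -0.070 over all tested genes and -0.12 over those that passed the stricter filter. Without overlap 3 of the 9 were lower and 1 higher, near the 31.5% and 18.9% of all tested genes. Eci1, an isomerase of that pathway, differed by -0.75 ± 0.24 (SE). Of 9 further fatty acid synthesis genes tested, Fads2, Me1 and Elovl5 were higher and Elovl1 and Acss2 lower without overlap. Elovl5, an elongase, stood at 8.26 and 8.42 against 8.71 and 9.02, and the differences were -0.45 for Elovl1 and -0.37 for Acss2. These 3 were picked after their values were seen. Fads2, a desaturase of polyunsaturated fatty acids, stood at 3.49 and 4.53 in CX3CR1low and at 6.00 and 6.93 in CX3CR1bright cells, a difference of 2.45 ± 0.47 (SE) with an adjusted p of 0.103 (limma). The lower CX3CR1low value was under its array's median and can be background. Me1, which supplies reducing power for synthesis, stood at 4.98 and 3.52 against 5.69 and 5.70 (difference 1.44 ± 0.48, SE). Its CX3CR1low replicate 2 was also under the array median and can be background; the difference was 0.71 without that array and 2.17 without CX3CR1low replicate 1. Fads2 and Me1 were higher on both CX3CR1bright arrays, where the medians of fibroblast, dendritic and Langerhans cell markers lay higher as well. The keratinocyte median was far above the CX3CR1low mean on CX3CR1bright replicate 2 (2.49). On CX3CR1bright replicate 1 it lay 0.38 above that mean, beside 0.34 on CX3CR1low replicate 1. The part of these cell types in Fads2 and Me1 was not tested.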

How the data were processed

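Log2 expression levels for 34390 rows on 4 Affymetrix arrays were used as deposited. According to the submitters' processing notes, the authors' tools were Affymetrix Expression Console 1.4 and RMA. The build is not given in the sources used here. RNA from sorted cells was labelled with an Affymetrix WT Pico kit, per the labels' protocols, which amplifies small amounts. Probe intensities and detection calls were not used, so background correction could not be varied, and a level near the array median can be background.

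Rows with 1 gene symbol in GEO's platform annotation (23521) were named by it, those with several (1814) or none (9055) were left unnamed. The row with the highest mean stood for a gene. The test was limma 3.58.1 under R 4.3.3 (lmFit and eBayes, two-sided, Benjamini-Hochberg over 13133 genes, threshold 0.05), with 2 residual and 3.28 prior degrees of freedom. Precision is limited by having few arrays, and p-values reflect differences between pools rather than single mice. The members, lists and tests were chosen with earlier results of these data known. Named genes were all members, Cx3cr1, the 8 further pathway genes with the smallest p, and defining markers; Elovl3, Far2 and the other single markers were picked after their values were seen. In 10 simulations with 13133 genes, the test called 1.8% of genes with a log2 difference of 1, 72.6% at 2 and 91.8% at 3. It also called 68 of 129330 unchanged genes. Each size was given to 500 genes over the 10 simulations, with independent noise for each gene. The share called depends on how many genes change, so these figures need not hold for the real comparison. Alternatives were no filter, a stricter filter (gene mean above the mean of the arrays' upper quartiles), other normalizations, row choices, variance priors, a replicate block and leaving out each array.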

Additional observations from a re-analysis of the deposited data

How the results depend on the processing

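The count of all genes with an adjusted p under 0.05 (limma), 18, depended on most settings. It was 1 without a filter, after quantile normalization and under a robust prior, 33 after cyclic loess, 308 under an intensity trend, 416 with the stricter filter and 0 to 154 with 1 array left out. Of the lipid genes 0 passed (limma, 8 at an unadjusted p under 0.05). With the stricter filter 1 of 30 did (Abcg1), when 5.93% of 7019 tested genes passed. With the trend 1 of 32 did (Pltp), when 2.35% of all tested genes passed. At an unadjusted p under 0.05 there were 3 to 11 with 1 array left out. Leaving out any array leaves 1 in its subset, which is then assumed to vary like the others. The overlap counts under other scalings and without each array were chosen after seeing the data; 8 genes were lower without overlap after quantile normalization (26.1% of all tested genes), against 13. With 1 array left out 7 to 10 were higher, against 5, and 15 to 18 lower, when 29.3% to 33.3% and 42.2% to 45.7% of all tested genes were.

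Group medians that moved beyond the spread between arrays were those of sterol synthesis after cyclic loess (0.29), fatty acid synthesis with the stricter filter (0.62, without Acaca), and, with 1 array left out, fatty acid synthesis (0.018 to 0.42), uptake (-0.43 to 0.24), efflux (-0.76 to -0.51) and storage (-0.68 to -0.076). The sign changed for Scap after quantile normalization (0.093) and cyclic loess (0.10), Lpl after cyclic loess (0.019) and Fabp4 after median centring (-0.0035). With 1 array left out it changed for Hmgcs1 (-0.016 to 0.18), Cyp51 (-0.035 to 0.71), Msmo1 (-0.58 to 0.11), Scap (-0.13 to 0.042), Fasn (-0.16 to 0.26), Lpl (-0.67 to 0.42), Scarb1 (-0.49 to 0.20) and Fabp4 (-0.19 to 0.20). The cause of these changes was not tested.

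With the replicate number as a block, 0 genes passed (limma, 2637 at an unadjusted p under 0.05), and 8 lipid genes had an unadjusted p under 0.05. The labels do not say that the numbers pair the litters; the difference between replicates 1 and 2 correlated at r = 0.16 between the subsets, across genes, which are not independent replicates.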

Other observations

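Like Scd1 and Cyp51, Elovl6 and Mgll had their highest level on CX3CR1bright replicate 1 and no such level on replicate 2, and both were picked after their values were seen. Elovl6, the elongase that turns palmitate into stearate, stood at 5.94 and 4.61 in CX3CR1low and at 8.32 and 4.52 in CX3CR1bright cells. Mgll, the monoglyceride lipase gene, stood at 4.59 and 4.28 against 6.33 and 4.24.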
